A study of Mus musculus with 12 samples.

Results

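The 10 genes described here encode surface molecules and 1 transcription factor by which T cells are recognised: the CD3 chains Cd3d, Cd3e and Cd3g, the coreceptors Cd4, Cd8a and Cd8b1, the costimulatory receptors Icos and Cd28, the chemokine receptor Ccr7 and the transcription factor Foxp3. They were taken by symbol, with earlier results of these data known, from 22180 genes with a probe set annotated to a single symbol, and each of the 10 had 1 such probe set. Cd8a and Cd8b1 mark cytotoxic rather than helper T cells. All 10 could be measured in laser-captured stroma and tumor of mouse colorectal tumors, and 9 of them entered the tests. Cd28, with a mean log2 signal of 3.50, lay in the dimmest 25% of genes and did not.

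Colorectal tumors had been induced with azoxymethane, a carcinogen, and dextran sulfate, an irritant of the colon, in all mice. The 4 groups were stroma of Stat3dm mice, which lack Stat3 in myeloid cells through a conditional deletion, stroma of Stat3wt mice, tumor of Stat3dm mice and tumor of Stat3wt mice, with 3 samples each and 1 array per sample. A sample pooled 2 tumors of 1 mouse, and its RNA came from paraffin-embedded tissue and was amplified, so p-values measure the spread between single mice and the steps after them. Which promoter drove the deletion, the strain, sex and age of the mice, and how areas were picked for capture were not given in the labels. The study was designed to find changes of the stroma that depend on STAT3 signaling in myeloid cells.

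The T cell receptor recognises peptide bound to MHC molecules but has no signaling part of its own, and the CD3 chains that assemble with it carry the signal into the cell. CD4 and CD8 bind MHC class II and class I and bring a kinase to the complex. CD28 and ICOS add a costimulatory signal when they meet their ligands on antigen-presenting cells. CCR7 guides naive and central memory T cells, B cells and mature dendritic cells into lymphoid tissue, and FOXP3 defines regulatory T cells, which restrain inflammation and are abundant in the colon. Some members are also found outside T cells, such as Cd8a on a class of dendritic cells and Cd4 on lymphoid tissue inducer cells.

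The 3 CD3 genes are neighbours on chromosome 9 of the mouse, with Cd3g and Cd3d read in opposite directions from starts that lie 1355 bases apart. Their promoters are shown because these genes share a complex and a locus and were measured by separate probe sets. Each sequence holds 250 bases before and 50 bases after the start of the gene, 5′ to 3′ on the gene's strand, from RefSeq on build GRCm38.p6, and capitals mark matches to TTCNNNGAA, a motif of STAT factors, or to CAGGTG, an E-box bound by T cell transcription factors, on either strand.
Cd3d, chr9:44981536-44981835, plus strand: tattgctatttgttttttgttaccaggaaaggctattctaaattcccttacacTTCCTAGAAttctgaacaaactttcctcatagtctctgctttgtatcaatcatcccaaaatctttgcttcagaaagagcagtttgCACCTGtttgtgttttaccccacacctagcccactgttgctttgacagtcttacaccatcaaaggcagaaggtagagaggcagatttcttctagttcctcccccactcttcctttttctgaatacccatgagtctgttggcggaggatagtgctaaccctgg
Cd3g, chr9:44980382-44980681, minus strand: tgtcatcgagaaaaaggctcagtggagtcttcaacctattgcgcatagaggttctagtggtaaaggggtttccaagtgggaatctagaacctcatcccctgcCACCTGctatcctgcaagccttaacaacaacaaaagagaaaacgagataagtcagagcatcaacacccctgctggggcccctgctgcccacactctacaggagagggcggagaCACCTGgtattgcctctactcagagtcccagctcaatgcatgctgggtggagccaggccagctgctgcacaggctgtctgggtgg
Cd3e, chr9:45009562-45009861, minus strand: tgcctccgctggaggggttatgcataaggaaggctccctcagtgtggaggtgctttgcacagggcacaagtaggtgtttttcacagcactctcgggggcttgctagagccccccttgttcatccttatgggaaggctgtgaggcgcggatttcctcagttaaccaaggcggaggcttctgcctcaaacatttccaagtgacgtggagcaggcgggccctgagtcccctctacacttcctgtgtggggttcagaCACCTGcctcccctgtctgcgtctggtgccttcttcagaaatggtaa
The Cd3d window held 1 match to TTCNNNGAA and 1 to CAGGTG, the Cd3g window 2 to CAGGTG, and the Cd3e window 1 to CAGGTG. The matches did not overlap. Among 32851 promoter windows of 300 bases, 8.30% held TTCNNNGAA and 20.2% held CAGGTG. The core bound by RUNX factors, TGTGGT, is in 16.8% of windows and was not found in these 3. Promoter windows were at hand for 5 of the 10 genes, and a match of letters is a description only.

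Within a group, the correlation between arrays was 0.881 to 0.967, and 0 of 66 pairs of arrays were identical. The spread of an array's log2 values (SD) was 1.65 to 1.72 in Stat3dm stroma, 1.60 to 1.76 in Stat3wt stroma, 1.65 to 1.85 in Stat3dm tumor and 1.75 to 1.91 in Stat3wt tumor. Epithelial markers averaged over a list of 8 genes had a log2 level of 7.45 to 8.98 in Stat3dm stroma, 7.64 to 7.999 in Stat3wt stroma, 8.74 to 9.58 in Stat3dm tumor and 8.62 to 9.35 in Stat3wt tumor. Stat3dm stroma 1, at 8.98, thus lay within the range of the tumor samples in its epithelial genes, and its 7 fibroblast genes averaged 7.41, the lowest of the 6 stroma samples. The members' median is given with and without it in each comparison that uses it, as are the calls it changed. Stat3 itself had log2 levels of 7.35, 7.32 and 7.40 in Stat3dm stroma, against 6.72, 7.33 and 8.02 in Stat3wt stroma, and 7.08, 7.28 and 7.97 in Stat3dm tumor, against 7.48, 7.43 and 8.22 in Stat3wt tumor. The levels overlapped in both tissues, and since other cells keep the gene and the position of the probe set relative to the deleted part is not known, this did not check the labels.

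Most members had the same order of groups. For 7 of the 10 genes the mean fell in the order Stat3dm stroma, Stat3wt stroma, Stat3dm tumor, Stat3wt tumor. Cd8a had Stat3dm tumor above Stat3wt stroma, Ccr7 had its lowest mean in Stat3dm tumor, and Cd28 had Stat3wt stroma on top. The mean log2 level over the 9 tested members was 5.47, 6.26 and 5.997 in Stat3dm stroma, 5.35, 5.34 and 5.52 in Stat3wt stroma, 5.02, 5.13 and 5.001 in Stat3dm tumor and 4.87, 4.96 and 4.67 in Stat3wt tumor. Every stroma sample thus lay above every tumor sample, while Stat3dm stroma 1 lay close to the Stat3wt stroma samples. All values are log2 signals from bulk tissue, in which fewer T cells and less RNA of a gene per T cell cannot be told apart.

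**Figure D1:**
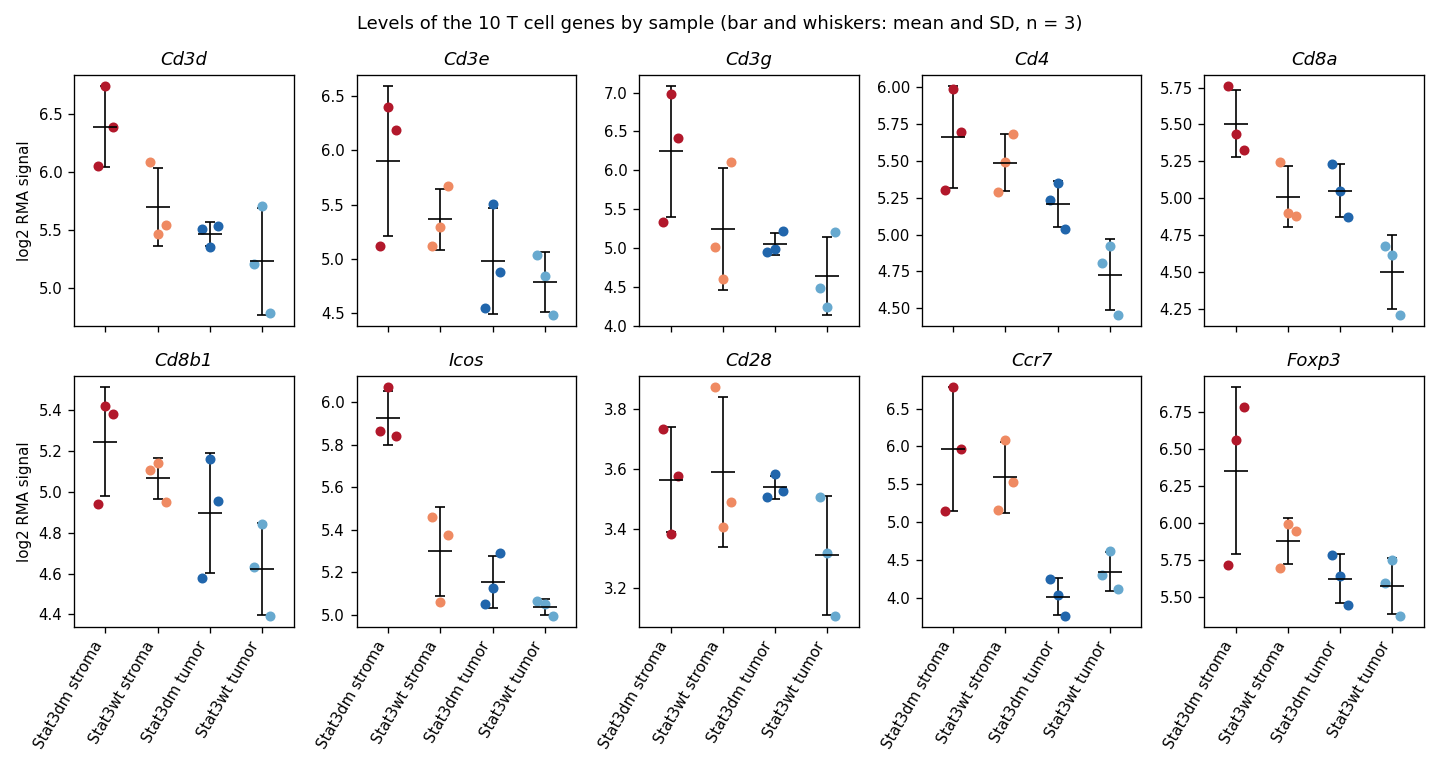
Log2 signal (vertical axis, own scale for each gene) of the 10 genes in each of the 12 samples, with 3 points per group and the group mean and SD as bar and whiskers. Ccr7 separates all stroma from all tumor samples, Icos is highest in the 3 Stat3dm stroma samples, and Cd28 stays between 3.11 and 3.87 throughout.

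Stroma was compared with tumor first, to describe where in the lesion these transcripts were found. Ccr7 and Icos were higher in stroma over both genotypes and passed the test, and the CD3 chains, the coreceptors and Foxp3 lay higher in stroma in both genotypes without passing. With the replicate number as a block in limma, fixed or random, 7 members passed, namely Ccr7, Icos, Cd3d, Cd3e, Cd3g, Cd4 and Cd8a. Of all 16635 genes, 1876 passed with the fixed and 1648 with the random block, and what a number marks is not known. A gene passed when its p from limma's moderated test, adjusted by Benjamini-Hochberg over all 16635 genes, was under 0.05. In the mean of both genotypes 2 of the 9 tested members passed, against 2.55% of all genes (425 genes, 141 higher and 284 lower). How these genes split depended on the scaling, with 246 higher and 194 lower after quantile normalization, 32 and 136 after median centring, and 228 and 36 with the array SD as a covariate. All 9 had a log2 difference above 0, against 47% of all genes, with a median of 0.61 for the members and -0.027 for all genes. Without Stat3dm stroma 1 the members' median was 0.70 and 6 of them passed, Icos not among them. Over the fits that leave out 1 array 0 to 1296 of all genes passed, so these 6 cannot be set against the 2.55%. At an unadjusted p under 0.05 all 9 lay higher in stroma, against 7.11% of all genes. The 2 widest arrays are tumor samples, and without them 0 members and 0 of all genes passed, while the differences of all 9 stayed above 0.

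Ccr7 had the largest difference between the tissues. Its log2 level was 5.15, 6.78 and 5.97 in Stat3dm stroma, against 4.25, 4.03 and 3.77 in Stat3dm tumor, and 5.16, 6.09 and 5.54 in Stat3wt stroma, against 4.31, 4.63 and 4.11 in Stat3wt tumor. The 6 stroma samples all lay above the 6 tumor samples, which holds in this direction for 0.721% of all genes. All 6 tumor values lay under 4.64, the level under which 95% of the single-array values of 1394 olfactory and vomeronasal receptor genes lay. Tumor is thus not shown to be above background, and the folds of Ccr7 are estimates limited by this. Cd3e, Cd3g, Cd4, Cd8a and Cd8b1 also had some tumor values under 4.64, and Cd3g had 4.60 in Stat3wt stroma 2. What this does to their differences was not tested. In the mean of both genotypes Ccr7 was 3.03-fold higher in stroma (log2 1.60 ± 0.24 SE, 95% interval 1.08 to 2.12, limma adjusted p = 0.0216). It passed in 8 of the 12 fits that leave out 1 array, and had an adjusted p of 0.0683 without Stat3wt tumor 1, 0.058 without Stat3wt stroma 3, 0.075 without Stat3dm tumor 2 and 0.064 without Stat3dm tumor 3, and of 0.0827 without the 2 widest arrays. Its log2 difference stayed between 1.39 and 1.80 over the 12 fits. Without Stat3dm stroma 1 it was 1.80, with an adjusted p of 0.00657.

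Icos, which supports helper T cells in germinal centers and effector sites, had log2 levels of 5.86, 6.07 and 5.84 in Stat3dm stroma, against 5.05, 5.12 and 5.29 in Stat3dm tumor, with no overlap. In Stat3wt it was at 5.46, 5.06 and 5.37 in stroma and at 5.07, 5.05 and 4.997 in tumor, where stroma 2 lay within the tumor range. Over both genotypes it was 1.43-fold higher in stroma (log2 0.51 ± 0.13 SE, limma adjusted p = 0.0486). This call was narrow. It was kept without Stat3dm tumor 1 (adjusted p = 0.0451) and lost in the other 11 fits that leave out 1 array, whose adjusted p reached 0.138 without Stat3dm stroma 2 and was 0.0541 without Stat3dm stroma 1. It was 0.122 without the 2 widest arrays, 0.0852 after median centring, 0.0714 with the array SD as a covariate and 0.0551 with no filter on dim genes.

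The CD3 chains had differences of like size between the tissues, with overlapping intervals. Cd3d was at 6.05, 6.74 and 6.38 in Stat3dm stroma, against 5.51, 5.35 and 5.54 in Stat3dm tumor, and at 6.09, 5.47 and 5.54 in Stat3wt stroma, against 5.20, 5.70 and 4.79 in Stat3wt tumor. In Stat3dm the tissues did not overlap, and in Stat3wt they did. Cd3e was at 5.12, 6.401 and 6.19 in Stat3dm stroma, against 4.55, 5.51 and 4.88 in Stat3dm tumor, and at 5.12, 5.30 and 5.68 in Stat3wt stroma, against 5.03, 4.85 and 4.49 in Stat3wt tumor. Here it was Stat3wt in which the tissues did not overlap. Cd3g was at 5.33, 6.98 and 6.41 in Stat3dm stroma, against 4.95, 4.99 and 5.21 in Stat3dm tumor, and at 5.02, 4.60 and 6.11 in Stat3wt stroma, against 4.49, 4.23 and 5.20 in Stat3wt tumor. Its sample 3 was the highest of its group in both tissues of Stat3wt, and the SD of 0.78 in Stat3wt stroma was the widest of the 3 genes in that group. Over both genotypes the log2 differences were 0.69 ± 0.18 SE for Cd3d, 0.75 ± 0.23 SE for Cd3e and 0.89 ± 0.29 SE for Cd3g, with limma adjusted p = 0.0598, 0.0879 and 0.104. Without Stat3dm stroma 1 all 3 passed, with adjusted p = 0.0408, 0.0254 and 0.0358. They also passed with the replicate block in limma, with adjusted p = 0.0248, 0.0161 and 0.0124 for a fixed block and 0.0226, 0.0304 and 0.0371 for a random one.

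The coreceptors followed, and their differences were not tested against those of the CD3 chains. Cd4 had log2 levels of 5.30, 5.99 and 5.70 in Stat3dm stroma, against 5.23, 5.35 and 5.04 in Stat3dm tumor, and of 5.29, 5.49 and 5.68 in Stat3wt stroma, against 4.80, 4.92 and 4.46 in Stat3wt tumor. Cd8a had levels of 5.76, 5.43 and 5.33 in Stat3dm stroma, against 5.23, 5.05 and 4.87 in Stat3dm tumor, and of 5.25, 4.90 and 4.88 in Stat3wt stroma, against 4.68, 4.62 and 4.21 in Stat3wt tumor. For Cd8a the tissues were apart within each genotype, and for Cd4 within Stat3wt. Cd8b1, the partner chain of Cd8a, ranged from 4.94 to 5.42 in Stat3dm stroma, 4.95 to 5.14 in Stat3wt stroma, 4.58 to 5.16 in Stat3dm tumor and 4.39 to 4.84 in Stat3wt tumor. The log2 differences over both genotypes were 0.61 ± 0.15 SE for Cd4, 0.48 ± 0.15 SE for Cd8a and 0.40 ± 0.15 SE for Cd8b1 (limma adjusted p = 0.0529, 0.0873 and 0.149). Leaving out Stat3dm stroma 1, Cd4 passed, with 0.70 and an adjusted p of 0.0301. With the replicate block Cd4 and Cd8a passed, with limma adjusted p = 0.0253 and 0.0359 for a fixed block and 0.0186 and 0.0308 for a random one.

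Foxp3 had log2 levels of 5.72, 6.56 and 6.78 in Stat3dm stroma, against 5.78, 5.64 and 5.45 in Stat3dm tumor, and of 5.70, 5.99 and 5.95 in Stat3wt stroma, against 5.60, 5.75 and 5.38 in Stat3wt tumor. Stat3dm stroma 1 lay among the tumor samples and the other samples of that group were the highest of all 12. Over both genotypes Foxp3 differed by 0.52 ± 0.18 SE (limma adjusted p = 0.116), and by 0.67 without Stat3dm stroma 1, where it passed with an adjusted p of 0.0287. Cd28 ranged from 3.38 to 3.73 in Stat3dm stroma, 3.40 to 3.87 in Stat3wt stroma, 3.51 to 3.58 in Stat3dm tumor and 3.11 to 3.51 in Stat3wt tumor. Its tissue difference was 0.15, with an interval of -0.14 to 0.44 in the fit with no filter. Of 1394 olfactory and vomeronasal receptor genes, which serve the sense of smell, 82.4% had a lower mean than Cd28 and 97.0% to 99.2% a lower mean than the other members, although probe sets differ in brightness.

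Within each genotype alone no member passed in limma, and 0 of all 16635 genes did, with 1610 genes in Stat3dm and 2783 in Stat3wt at an unadjusted p under 0.05. In Stat3dm all 9 tested members lay above 0 in stroma minus tumor, against 45.5% of all genes, and the members' median was 0.77. At an unadjusted p under 0.05 there were 7 members, against 4.08% of all genes on this side. The groups did not overlap with stroma higher for 5 of them (Cd3d, Cd3g, Cd8a, Icos and Ccr7), against 6.57% of all genes. Ccr7 was 3.86-fold higher (log2 1.95 ± 0.34 SE, limma adjusted p = 0.108). Stat3dm samples of the same number correlated at 0.12, 0.16 and 0.30 across the tissues in their deviations from the group means. Whether they are pairs is not known. With the number as a fixed block in limma Ccr7 passed (adjusted p = 0.00995), among 152 genes in place of 0. With a random block it passed (adjusted p = 0.0226) among 62. Ccr7 also passed without Stat3dm stroma 1 (adjusted p = 0.0287). Cd3g, Icos, Cd3e and Cd3d had adjusted p = 0.0529, 0.0847, 0.0902 and 0.103 with the fixed block. The members' median was 1.05 without Stat3dm stroma 1.

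In Stat3wt all 9 members again lay above 0, against 46.7% of all genes, with a median of 0.51, and 3 had an unadjusted p under 0.05 (Ccr7, Cd4 and Cd8a), against 5.12% of all genes on this side. The groups did not overlap with stroma higher for Cd3e, Cd4, Cd8a, Cd8b1 and Ccr7, 5 of 9 members, against 8.88% of all genes. Ccr7 was 2.37-fold higher (log2 1.24 ± 0.34 SE, limma adjusted p = 0.195) and Cd4 1.69-fold higher (0.76 ± 0.22 SE, adjusted p = 0.208). The tissue differences of the genotypes were set against each other by the interaction, in which 0 members passed, against 0% of all genes, and 6 of 9 lay above 0, against 52.5% of all genes. The members' median was 0.42, and 0.63 without Stat3dm stroma 1, where 0 members passed. Ccr7 had the largest interaction, 0.70 with a wide interval of -0.34 to 1.75, and Icos had 0.51 with -0.039 to 1.06. At an unadjusted p under 0.05 the interaction had 0 members and 401 of all genes.

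**Figure D2:**
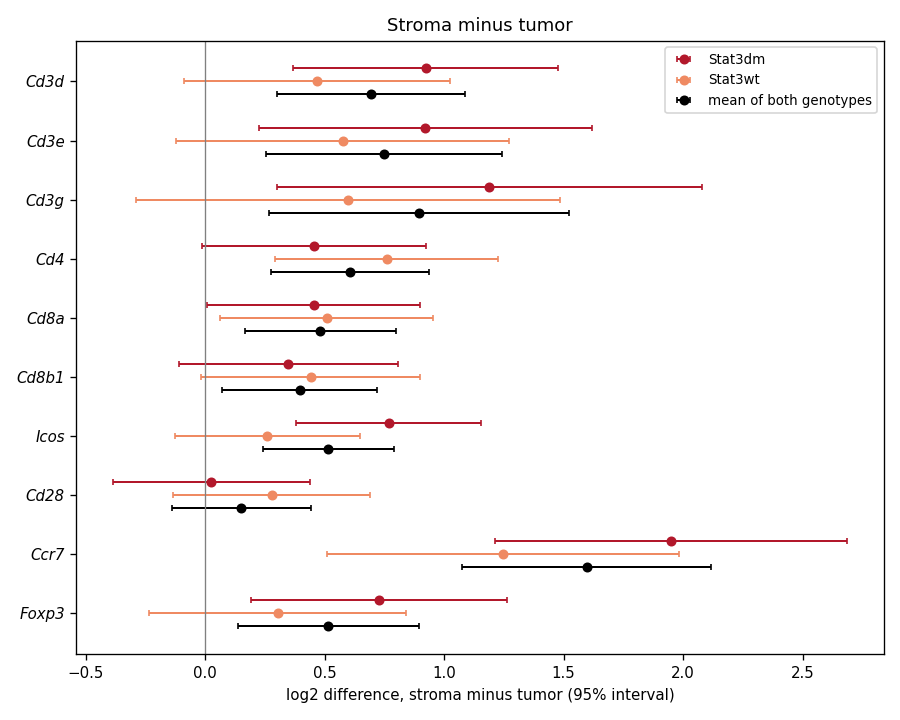
Log2 difference of stroma minus tumor (horizontal axis) for each gene in Stat3dm, in Stat3wt and in their mean, with 95% intervals from limma. In the mean of both genotypes the intervals of the 9 tested members lie above 0, that of Ccr7 from 1.08 to 2.12, and that of Cd28 spans 0.

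The genotypes were then compared in stroma. No member passed in limma, and 0 of all genes did, with 844 genes at an unadjusted p under 0.05. All 9 tested members lay higher in Stat3dm stroma, against 47.2% of all genes, with a median log2 difference of 0.50 against -0.016 for all genes. Icos was 1.54-fold higher (log2 0.63 ± 0.18 SE, interval 0.24 to 1.01, limma adjusted p = 0.547), and its 3 Stat3dm samples, between 5.84 and 6.07, all lay above the 3 Stat3wt samples, between 5.06 and 5.46. Cd8a was 1.41-fold higher (0.50 ± 0.21 SE, adjusted p = 0.925), also without overlap. These 2 of 9 compare with 5.13% of all genes whose groups did not overlap in this direction. At an unadjusted p under 0.05 there were 4 members, Icos, Cd3d, Cd3g and Cd8a, against 3.14% of all genes on this side.

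The CD3 chains differed by 0.69 ± 0.26 SE for Cd3d, 0.54 ± 0.33 SE for Cd3e and 1.00 ± 0.42 SE for Cd3g between Stat3dm and Stat3wt stroma, with limma adjusted p of 0.834, 0.999 and 0.914. In each of them Stat3dm stroma 2 and 3 lay above all Stat3wt stroma samples and Stat3dm stroma 1 did not. Foxp3 showed the same arrangement, at 0.47 ± 0.25 SE (adjusted p = 0.999). Cd4 differed by 0.17, Cd8b1 by 0.18 and Ccr7 by 0.37, with intervals that reach -0.29, -0.28 and -0.36. Cd28, at -0.025, was the sole member below 0. Without Stat3dm stroma 1 the median of the 9 members was 0.78 and 0 members passed. Cd3g then differed by 1.46 (adjusted p = 0.491), Cd3e by 0.93, Cd3d by 0.86, Foxp3 by 0.79, Ccr7 by 0.78, Icos by 0.66, Cd8a by 0.37, Cd4 by 0.35, Cd8b1 by 0.33 and Cd28 by -0.11. Without Stat3dm stroma 2 Ccr7 turned to -0.034.

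In tumor the median difference of Stat3dm minus Stat3wt over the members was 0.23. Cd4, Cd8a, Cd8b1 and, in the fit with no filter, Cd28 had larger differences there than in stroma, though no member's interaction passed. Their interactions were -0.30 ± 0.31, -0.054 ± 0.29, -0.094 ± 0.30 and -0.25 ± 0.27 SE in that order. Those of Cd8a and Cd8b1 changed sign in some fits that leave out 1 array. No member passed, against 0.018% of all genes, and 8 of the 9 tested members lay above 0, against 48.7% of all genes. The median was 0.097 without Stat3wt tumor 3, 0.14 without Stat3dm tumor 2, 0.41 without Stat3dm tumor 1 and 0.089 without the 2 widest arrays, and 7 of 9 members lay above 0 in each of these. Cd8a differed by 0.55 ± 0.21 SE (1.46-fold, limma adjusted p = 0.659) and Cd4 by 0.48 ± 0.22 SE (1.39-fold, adjusted p = 0.795), and both had 3 Stat3dm samples above the 3 Stat3wt samples, which holds for 4.05% of all genes on this side. These were also the 2 members with an unadjusted p under 0.05, against 1.76% of all genes. Ccr7 was the exception, at -0.33 with an interval of -1.07 to 0.41. Tumor samples of the same number correlated at 0.32, 0.15 and 0.69 across the genotypes in their deviations from the group means. With the number as a fixed block across genotypes 89 genes passed in limma in place of 3, and 0 of the members, with Cd8a at an adjusted p of 0.195. The random block was another design, which linked stroma and tumor of the same genotype and number and did not link the genotypes. With it 3 genes and 0 members passed. In the mean of both tissues Cd8a had the smallest p of the members, with a difference of 0.52 ± 0.15 SE (limma adjusted p = 0.181, 0.0382 with that fixed and 0.342 with that random block). In the fit with no block 0 of 9 members passed there, against 0.283% of all genes. The median was 0.36, and 0.42 without Stat3dm stroma 1. All 9 lay above 0 there, against 47.4% of all genes, 4 had an unadjusted p under 0.05, against 3.52%, and 0 had groups of 6 that did not overlap, against 0.168%.

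**Figure D3:**
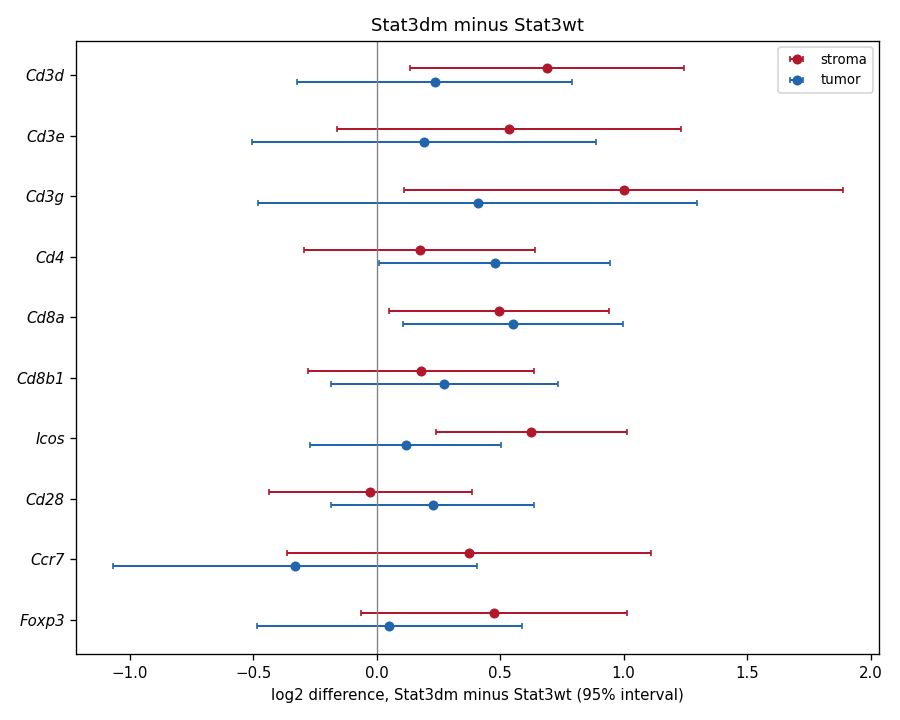
Log2 difference of Stat3dm minus Stat3wt (horizontal axis) for each gene in stroma and in tumor, with 95% intervals from limma. Icos, Cd3d, Cd3g and Cd8a in stroma and Cd4 and Cd8a in tumor have intervals above 0, and none of the genes drawn passed after adjustment over all genes.

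Other genes of T cells were taken from lists written from general knowledge. In stroma minus tumor over both genotypes, 15 of 16 tested genes of T cell receptor signaling lay above 0 with a median of 0.25, and 1 passed. It was Lcp2, an adaptor also used by myeloid cells (1.77-fold, limma adjusted p = 0.0283). Lat, the adaptor phosphorylated when the receptor is engaged, differed by 0.65 ± 0.20 SE (adjusted p = 0.0918), and Rasgrp1 by 0.45 ± 0.13 SE (adjusted p = 0.0715). Of other T cell surface genes all 16 lay above 0, with a median of 0.45, and 2 passed. These were Il7r, the receptor for a survival factor of T cells (2.03-fold, adjusted p = 0.0216), and Thy1, which stromal cells also carry (1.75-fold, adjusted p = 0.0361). Ctla4, an inhibitory receptor of regulatory T cells, differed by 0.62 ± 0.17 SE (adjusted p = 0.0615).

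Transcription factors of T cell lineages were mixed, with 8 of 11 above 0 and a median of 0.32. Ikzf1, a factor of all lymphocytes, passed at 1.76-fold (limma adjusted p = 0.0362). Maf, used by several helper lineages and by macrophages, had 1.09 ± 0.32 SE (adjusted p = 0.0809), Runx3, a factor of cytotoxic T cells, had 0.41 ± 0.14 SE (adjusted p = 0.118), and Lef1, which Wnt-driven epithelium also expresses, had -0.66 ± 0.23 SE (adjusted p = 0.122). Of 12 cytokine genes of helper cells, 7 were bright enough to test. Their median was 0.33, with 5 above 0 and 0 passing, and Il13 had 0.34 ± 0.15 SE (adjusted p = 0.206), Il17f 0.35 ± 0.16 SE (adjusted p = 0.219), Ifng 0.36 ± 0.20 SE (adjusted p = 0.293) and Il21 0.33 ± 0.22 SE (adjusted p = 0.373). The cytokine median was 0.17 without Stat3dm stroma 1, with 4 of 7 above 0. Il2, Il4, Il10, Il22 and Csf2 lay under the filter. Of the ligands of the member receptors 3 could be tested, and Cd86, which binds CD28 and CTLA-4, passed (1.46-fold, adjusted p = 0.0403), while Cd80 had 0.43 ± 0.17 SE (adjusted p = 0.158) and Icosl 0.42 ± 0.18 SE (adjusted p = 0.186).

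Between Stat3dm and Stat3wt stroma none of these genes passed. The medians were 0.27 for T cell receptor signaling (13 of 16 above 0), 0.38 for other surface genes (16 of 16), 0.12 for the transcription factors (6 of 11) and 0.052 for the cytokines (5 of 7). Lat differed by 1.29 ± 0.29 SE (limma adjusted p = 0.304), Il2rb by 0.85 ± 0.25 SE (adjusted p = 0.557), Il7r by 0.78 ± 0.24 SE (adjusted p = 0.58) and Il2ra by 0.73 ± 0.19 SE (adjusted p = 0.473). Of the 3 ligands, whose median was 0.35, Cd86 differed by 0.86 ± 0.18 SE (adjusted p = 0.24). With Stat3dm stroma 1 left out the medians were 0.36, 0.57, 0.11 and 0.076 for the first 4 of these lists and 0.66 for the ligands. The receptor subunits Il2ra and Il2rb bind interleukin-2, on which activated and regulatory T cells depend.

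Markers of other leukocytes moved with the members. In stroma minus tumor over both genotypes, all 7 pan-leukocyte genes passed, with a median of 1.11, among them Coro1a, an actin regulator (2.09-fold, limma adjusted p = 0.0216). Of 6 tested B cell genes all lay above 0 with a median of 0.63, and Cd79b of the B cell receptor passed (1.95-fold, adjusted p = 0.0478). Of 6 genes of lymphoid follicles 5 lay above 0 with a median of 0.64, and Cxcr5, the receptor that leads B cells and follicular helper T cells into follicles, passed (1.63-fold, adjusted p = 0.0362). The chemokine Ccl5, made by NK cells and T cells, was 2.96-fold higher (adjusted p = 0.0216), in a list of NK and cytotoxic genes with 5 of 6 above 0 and a median of 0.27, which was 0.18 without Stat3dm stroma 1. Macrophage genes had 6 of 8 above 0 with a median of 0.72, and dendritic cell genes 6 of 6 with 0.22, and 0 of either passed. Epithelial genes lay the other way, with 0 of 8 above 0, a median of -1.03 and 4 passing, and 7 endothelial and 7 fibroblast genes had medians of 0.68 and 0.69. The part of these cells in the members' differences was not tested. The spread of the arrays was entered as a covariate, with which the differences of all 9 tested members stayed above 0. Over the 12 arrays the members' levels correlated with the array SD at -0.079 (Cd3g) to -0.79 (Cd8a). The widest arrays are tumor samples, so the part of the spread was not told apart from that of the tissue.

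In Stat3dm minus Stat3wt stroma the pan-leukocyte genes had a median of 0.91 (7 of 7 above 0), B cell genes 0.86 (6 of 6) and lymphoid follicle genes 0.79 (5 of 6), and 0 of them passed. Cd79a differed by 1.91 ± 0.42 SE (limma adjusted p = 0.28), Cxcr5 by 0.90 ± 0.22 SE (adjusted p = 0.368) and Cxcl13, which attracts B cells to follicles, by 1.28 ± 0.38 SE (adjusted p = 0.557). The mean level of the 6 B cell genes was 5.09, 5.89 and 5.98 in Stat3dm stroma and 4.78, 4.79 and 4.68 in Stat3wt stroma. Of the Stat3dm samples, 2 and 3 were highest in the B cell genes as they were in the members. NK and cytotoxic genes had a median of 0.18 in this comparison (4 of 6 above 0), macrophage genes 0.33 (7 of 8) and dendritic cell genes 0.26 (4 of 6). Epithelial genes had 0.43 (6 of 8), fibroblast genes -0.10 (1 of 7) and endothelial genes -0.28 (2 of 7). Without Stat3dm stroma 1 the medians of these 3 lists were 0.011 (4 of 8 above 0), 0.11 (4 of 7) and 0.030 (4 of 7), and those of the pan-leukocyte, B cell and lymphoid follicle genes 1.06, 1.06 and 0.84. Whether the members' difference follows the content of these cells was not tested.

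**Figure D4:**
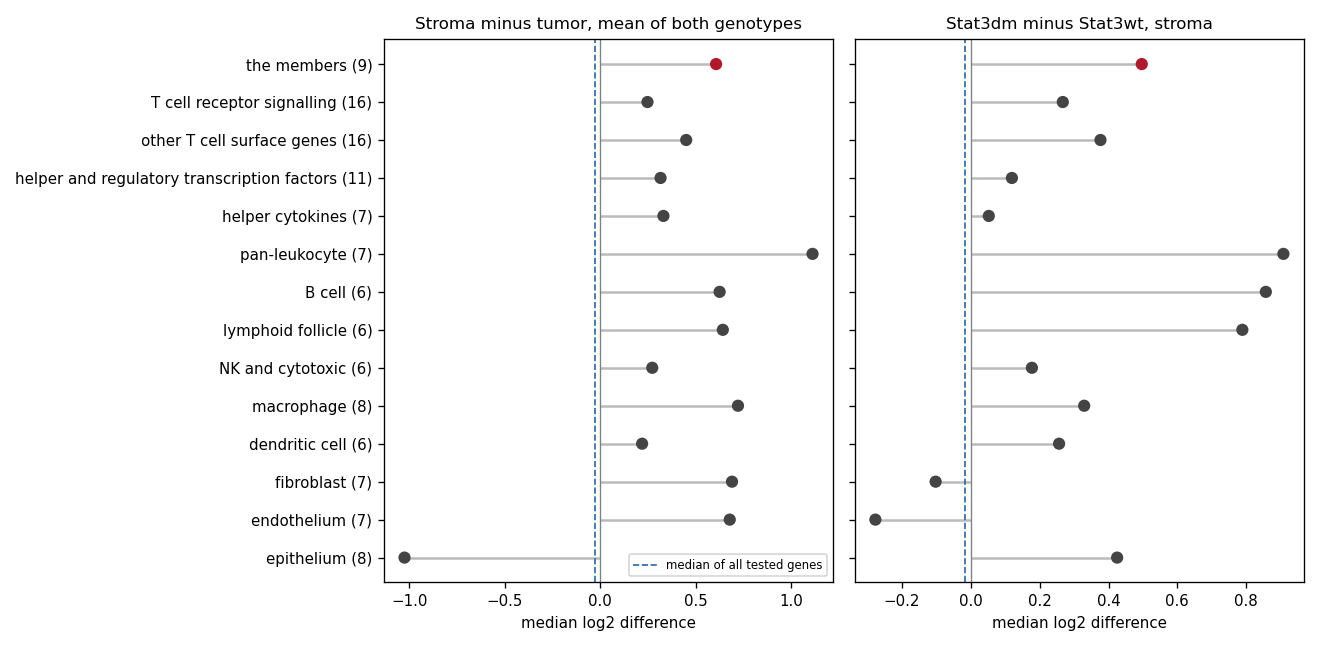
Median log2 difference (horizontal axis) of the 9 tested members and of 13 gene lists, with the number of tested genes in brackets, for stroma minus tumor over both genotypes on the left and Stat3dm minus Stat3wt in stroma on the right. The members, at 0.61 and 0.50, lie below the pan-leukocyte list at 1.11 and 0.91, and the dashed line is the median of all tested genes.

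To find the genes whose levels most resembled those of the members over the 12 arrays, each member was scaled to its own mean and SD, and the mean over the 9 was correlated with every other gene tested. The highest were Abi3 (Pearson's r = 0.965), Cytip (0.960), Itgb7 (0.960), Coro1a (0.958), Mmp25 (0.955), S1pr4 (0.955), Rab6b (0.945) and Sh2d2a (0.941). Itgb7 encodes an integrin chain of gut-homing lymphocytes, Sh2d2a a T cell adaptor and S1pr4 a receptor of lymphoid tissue. Such likeness was not particular to T cell genes, since Coro1a is a pan-leukocyte gene and Cd79b of the B cell receptor had 0.931. Among the members, the 45 pairs had r from 0.023 for Cd3g with Cd28 to 0.89 for Cd3d with Icos, with a median of 0.71. With the group means taken out the median was 0.31, and Cd3e with Cd4 had 0.83. These values describe 12 arrays that share 4 groups and the spread of each array.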

How the data were processed

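RNA of laser-captured, paraffin-embedded tissue, 50 ng per sample, was amplified and hybridised to 12 Affymetrix arrays. The deposited log2 values came from RMA, for which the submitters' processing notes name Affymetrix Expression Console 1.3.1. RMA corrects background, normalizes between arrays and summarises probes to probe sets. Neither a genome build nor a scan batch was given in the labels, and the number of arrays limits the precision.

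The table held 41345 probe sets. GEO's platform annotation, which can be old, gave 23521 of them 1 symbol and 1814 several, and 16010 were not listed in it. Each of 22180 genes was read from its brightest probe set by mean level, since 1082 of them had several. The dimmest 25% of genes (mean log2 below 3.65) were left out, and 16635 were tested with limma 3.58.1 in R 4.3.3 (lmFit and eBayes, a mean for each of the 4 groups, 7 contrasts, Benjamini-Hochberg over all genes tested, threshold 0.05). Cd28 took its values from the fit with no filter. The script was tested on simulated data.

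The members and the 14 gene lists (141 names, 127 with a probe set, 114 tested) were chosen with earlier results of these data known. Named are the members, Stat3, the 8 genes most like the members, and list genes from among those that passed or, in either of the main comparisons, the 4 of a list with the smallest p. Samples carry numbers 1 to 3 in each group. Deviations from the group means correlated at 0.12, 0.16 and 0.30 between Stat3dm stroma and Stat3dm tumor of the same number. For Stat3wt stroma and tumor the values were 0.44, -0.0041 and 0.51. They were 0.32, 0.15 and 0.69 between Stat3dm and Stat3wt tumor, and 0.15, -0.04 and 0.11 between Stat3dm and Stat3wt stroma. Samples of unlike number were not compared and no label says what a number marks, so pairing is not shown. Alternatives were quantile normalization, median centring, the array SD as a covariate, array weights, no filter, the mean over probe sets, the replicate block (fixed or random), only the groups compared, each array left out, and both arrays of widest spread left out. For tissue contrasts and the interaction the fixed block set stroma against tumor of the same genotype and number. For genotype contrasts it was the number alone, across genotypes and tissues. The random block linked stroma and tumor of the same genotype and number in every contrast. Medians of the lists without Stat3dm stroma 1 were added after seeing the data.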

Additional observations from a re-analysis of the deposited data

How the results depend on the processing

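The members' median kept its sign in all 151 alternatives and stayed within 0.30 (the SD between replicates) of its main value. This margin is wider than the median of 0.23 in Stat3dm minus Stat3wt tumor, which ran from 0.097 to 0.41 with 1 array left out. Many alternatives could not move a member's difference, so not all 151 are checks of the median. With 1 probe set per member, the mean over probe sets and the fit with no filter left it unchanged. So did both replicate blocks, the fit of only the groups compared, and leaving out an array outside the comparison. Of the values of single members, 1404 kept direction and side of the threshold, 54 passed in addition, 20 no longer passed and 32 changed sign. Counts of all genes called moved far more, and the cause was not tested. In stroma minus tumor over both genotypes, 425 genes became 168 after median centring, 264 with the array SD as a covariate, 3834 with array weights, 1876 with the fixed and 1648 with the random replicate block, 0 without the 2 widest arrays, and 0 to 1296 when 1 array was left out; it was 0 without Stat3wt stroma 3, Stat3dm tumor 2 or Stat3dm tumor 3. With either replicate block, 7 members passed there, all tested ones but Cd8b1 and Foxp3. In Stat3dm alone, 0 became 33 (quantile), 114 (SD covariate), 727 (weights), 152 (fixed block), 62 (random block) and 0 to 22 (1 array left out). In Stat3wt alone, 0 became 3963 (weights), 138 (fixed block), 5 (random block) and 0 to 8 (1 array left out). Stat3wt samples of the same number correlated across the tissues at 0.44, -0.0041 and 0.51. For Stat3dm minus Stat3wt in stroma, where samples of the same number correlated at 0.15, -0.04 and 0.11, 0 became 1 (quantile), 13 (SD covariate), 164 (weights), 28 (fixed block) and 0 to 2 (1 array left out). In tumor 3 became 14 (SD covariate), 1579 (weights), 89 (fixed block), stayed at 3 with the random block, and was 0 to 7 (1 array left out). In the mean of both tissues 47 became 90 (quantile), 17 (centring), 166 (SD covariate), 945 (weights), 292 (fixed block), 13 (random block), 21 (without the 2 widest arrays) and 16 to 69 (1 array left out), and Cd8a passed with the fixed block (adjusted p = 0.0382) and not with the random block (0.342). The interaction had 0 genes, and 4 with weights. The weights ran from 0.258 for Stat3wt tumor 3 to 7.80 for Stat3wt tumor 1, and their estimation stopped before it converged. With them Cd3d, Cd3g and Icos passed in Stat3dm minus Stat3wt stroma (limma adjusted p = 0.0431, 0.0388 and 0.0227). This was not particular to that comparison, since members passed with the weights in every comparison but the interaction. In stroma minus tumor 9 of 9 passed over both genotypes, 5 in Stat3dm and 3 in Stat3wt. Between the genotypes 3 passed in tumor and 4 in the mean of both tissues, and the counts of all genes with weights are given above.

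Differences near 0 changed sign. Cd28 had 0.068 with weights in Stat3dm minus Stat3wt stroma, -0.0051 with weights in Stat3wt tissues, -0.018 with weights over both genotypes, and -0.032 (quantile), -0.0099 (centring), -0.042 (SD covariate) and -0.031 (weights) in Stat3dm tissues. Cd3d had -0.023 in Stat3dm minus Stat3wt tumor without the 2 widest arrays, and Ccr7 -0.052 with weights between genotypes over both tissues. In the interaction Cd8a had 0.0095 (centring), 0.13 (SD covariate), 0.11 (weights) and 0.0016 (without the 2 widest arrays), and Cd8b1 0.049 in the last of these. With 1 array left out, Cd28 ran from -0.12 to 0.12 and Ccr7 from -0.034 to 0.78 in Stat3dm minus Stat3wt stroma, Foxp3 from -0.049 to 0.14 and Cd3e from -0.074 to 0.41 in tumor, Cd8a from -0.18 to 0.091 and Cd8b1 from -0.25 to 0.060 in the interaction, Cd28 from -0.059 to 0.12 in Stat3dm tissues, and Ccr7 from -0.18 to 0.22 between genotypes over both tissues. Cd28 lay among the dimmest genes, and its signal over background limits what could be measured.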

Other observations

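Outside the members, the chemokine Ccl5, made by NK cells and T cells, passed in the comparison of the genotypes over both tissues. It was 3.11-fold higher in Stat3dm than in Stat3wt (log2 1.64, limma adjusted p = 0.00948), as 1 of 47 genes that passed there. Of the 6 tested NK and cytotoxic genes it was the 1 that passed, and their median was 0.17, with 5 above 0. This fit had no replicate block and took stroma and tumor samples as independent, though whether they share mice is not known. More genes passed there with the fixed and fewer with the random block, and whether Ccl5 was among them is not given here.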
